A study of Mus musculus with 50 samples.

Results

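The 7 genes described here write, maintain or remove methyl groups on DNA. They were taken by name as Dnmt1, Uhrf1, Dnmt3a, Dnmt3b, Tet1, Tet2 and Tet3, and all 7 had a row among the 11879 genes of the deposited table. The table gave their levels in 50 single induced hemogenic endothelial cells (iHECs), the endothelial cells from which blood cells arise. The iHECs were made in culture from C57BL/6 mouse embryonic stem cells in which a Runx1 cassette, placed at Rosa26, responds to doxycycline (iRunx1). The line was picked as hygromycin-resistant clones. Doxycycline had been given to all cells, and the study sorted them as CD31+ CD41low CD45- c-kit+ CD201high. All 50 cells formed 1 group with no control cells, and no label named a separate culture or animal, so they were 1 sample without a replicate. No test over samples could be made, and each value below describes these cells.

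In mammals, Dnmt3a and Dnmt3b place methyl groups on unmethylated CpG sites. Dnmt1 copies the marks onto the new strand after DNA replication, and Uhrf1 recognises the half-copied sites and brings Dnmt1 to them. Tet1, Tet2 and Tet3 oxidise the methyl group, from which it can be lost by dilution or by base excision. Dnmt3a and Tet2 are well known as regulators of blood stem cells, and Dnmt3b and Tet1 are known for high levels in pluripotent and early embryonic cells.

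Levels were given by the authors in TPM, a transcript share of each library scaled for gene length, so the members may be compared with each other. TPM keeps no sequencing depth. The number of genes above TPM 1 in a cell was used in its place. It ran from 2400 in cell 4-6, with the next lowest cell at 4326, to 8615, and the median was 6224. Cells are named by the 2 numbers of their titles, whose meaning is not given. The first number takes the values 1 to 4, with 11, 14, 13 and 12 cells. All 8 endothelial marker genes examined were above TPM 1 in at least 45 cells. Of 7 blood genes, 2 were above TPM 1 in at least 25 cells. These 2 were so in 49 and 48 cells, with medians of 200 and 194 TPM. The defining gene Ptprc (CD45) was listed at 0 in all 50. By the same measure the 5 erythroid genes with a row were above TPM 1 in at most 4 cells, and the 4 mesenchymal genes with a row in at most 2. None of 10 pluripotency genes looked for had a row, so undifferentiated cells were not assessed here.

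A gene is called present in a cell at TPM above 1. The 7 members were present in 218 of 350 pairs of a gene and a cell (62.3%), listed at 0 in 92 and above 0 up to TPM 1 in 40. Of the 7 members, 6 were present in at least 25 of 50 cells. Over all rows of the table this share was 53.2%. The median share of cells over the members was 60%, and over all rows it was 52%. As no depth is known, absence below means only that a value was not above TPM 1. Intervals are exact 95% Clopper-Pearson intervals over cells and cover counting error only.

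**Figure D1:**
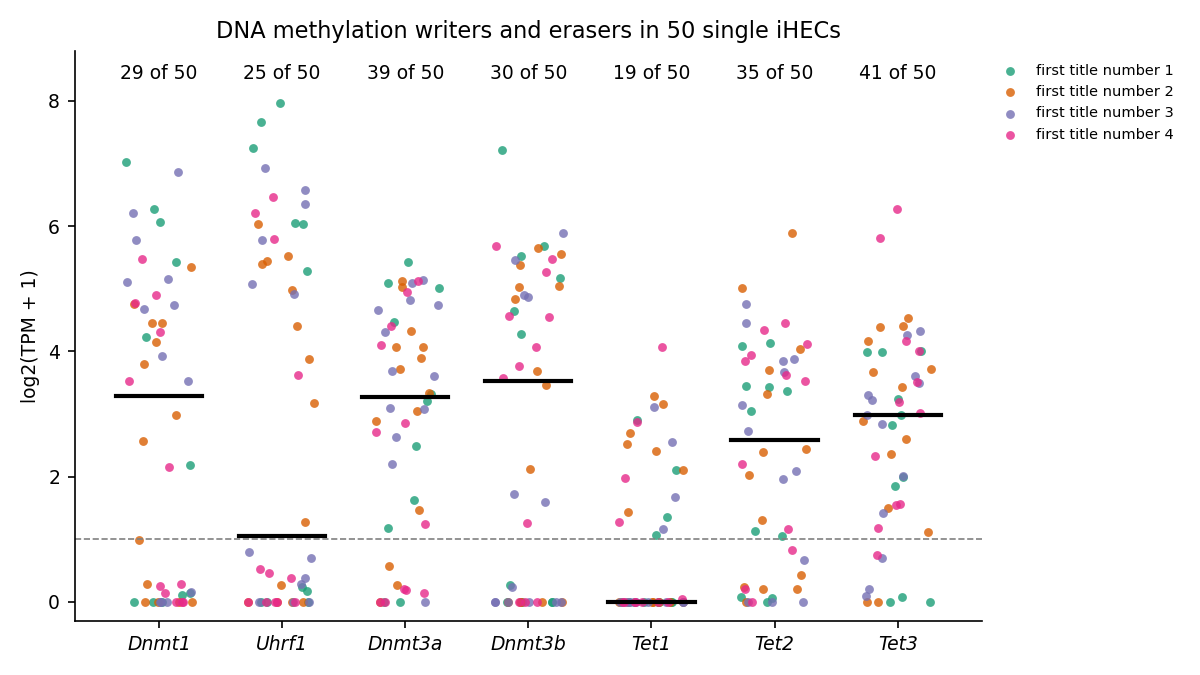
Level of each gene in each of 50 cells on the log2(TPM + 1) scale, coloured by the first title number, with black bars at the medians, the dashed line at TPM 1 and the number of cells above it on top. Uhrf1, Dnmt1 and Dnmt3b split into cells near 0 and cells at high levels, Tet1 stays low throughout, and Dnmt3a, Tet2 and Tet3 spread more evenly.

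The maintenance pair came first. Dnmt1 (GRCm38 chromosome 9, 20907209 to 20959888, minus strand) was present in 29 of 50 cells, or 58% (43.2% to 71.8%). Its lowest value was 0, its median 8.72 and its highest 130 TPM, reached in cell 1-8. In the 29 cells with Dnmt1 the median was 25.9 TPM and the lowest value 3.45 TPM, while 13 cells were listed at 0. Uhrf1 (chromosome 17, 56303321 to 56323486, plus strand) was present in 25 cells, or 50% (35.5% to 64.5%). Its values ran from 0 over a median of 1.08 to 248 TPM, also in cell 1-8. Where it was present the median was 53.9 TPM, the highest such value of the 7 genes, and 23 of these 25 cells were above 10 TPM. Uhrf1 was thus either at or near 0 or high, with few cells between.

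Both de novo enzymes were common. Dnmt3a (chromosome 12, 3806007 to 3914443, plus strand) was present in 39 cells, or 78% (64.0% to 88.5%), with a median of 8.66 and a highest value of 42.2 TPM. No cell exceeded 50 TPM, and the SD of its log2(TPM + 1) over cells was 1.84, against 2.9 for Uhrf1 and 2.46 for Dnmt1. Dnmt3b (chromosome 2, 153649450 to 153687730, plus strand) was present in fewer cells, 30 or 60% (45.2% to 73.6%), and had the highest median of the 7 genes, 10.5 TPM. Its highest value, 147 TPM in cell 1-2, stood well above the next highest, 58.6 TPM. It was listed at 0 in 18 cells, and 26 of its 30 cells were above 10 TPM, so it too had few cells between. Above 10 TPM the order of the pair turned, with Dnmt3b in 26 cells and Dnmt3a in 23.

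Of the Tet dioxygenases, Tet3 was the most common and Tet1 the least. Tet3 (chromosome 6, 83362373 to 83459084, minus strand) was present in 41 cells, or 82% (68.6% to 91.4%), with a median of 6.91 and a highest value of 76.5 TPM. Tet2 (chromosome 3, 133463679 to 133545139, minus strand) was present in 35 cells, or 70% (55.4% to 82.1%), with a median of 5.03 and a highest value of 58.4 TPM. Tet1 (chromosome 10, 62804570 to 62908996, minus strand) was present in 19 cells, or 38% (24.7% to 52.8%). It was listed at 0 in 30 cells, so its median was 0, and its highest value was 15.7 TPM with the next at 8.72 TPM. The intervals of Tet1 and Tet3 did not overlap, and Tet3 was above Tet1 in 40 cells and below it in 7.

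The order of the medians was Dnmt3b, Dnmt1, Dnmt3a, Tet3, Tet2, Uhrf1 and Tet1. Most neighbours in this order could not be told apart by their spread over cells. Dnmt3b exceeded Dnmt1 in 26 cells and fell below it in 20. Dnmt1 exceeded Dnmt3a in 23 cells and was lower in 25, and Dnmt3a exceeded Tet3 in 26 and was lower in 24. Tet3 exceeded Tet2 in 26 cells and was lower in 24. Uhrf1 was below Tet2 by its median, yet it was the higher of the pair in 25 cells and the lower in 22. Tet1 lay below Uhrf1 in 32 cells and above it in 7.

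The shares also varied between the first title numbers. They were 50% to 69.2% for Dnmt1, 33.3% to 64.3% for Uhrf1, 58.3% to 92.3% for Dnmt3a and 46.2% to 75% for Dnmt3b. For Tet1 they were 30.8% to 50%, for Tet2 64.3% to 75% and for Tet3 72.7% to 91.7%. With so few cells for each number, no order between the numbers was read from these shares.

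How many of the 7 genes a cell held was then counted. The median cell held 4. All 7 were present in 8 cells, 1-2, 1-10, 2-9, 2-18, 3-2, 3-6, 3-8 and 4-4, which make up 16% (7.17% to 29.1%). None was present in 1 cell, 4-14, where the highest of the 7 values was 0.671 TPM for Tet3. Another 6 cells held 1 or 2 of the genes. The number of members rose with the number of genes measured, with a Spearman's rho of 0.669 over the 50 cells. The 8 cells with all members had 6421 to 8615 genes above TPM 1, and the 7 cells with 2 or fewer members had 2400 to 6243. Joint presence is therefore given below beside the number of genes.

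**Figure D2:**
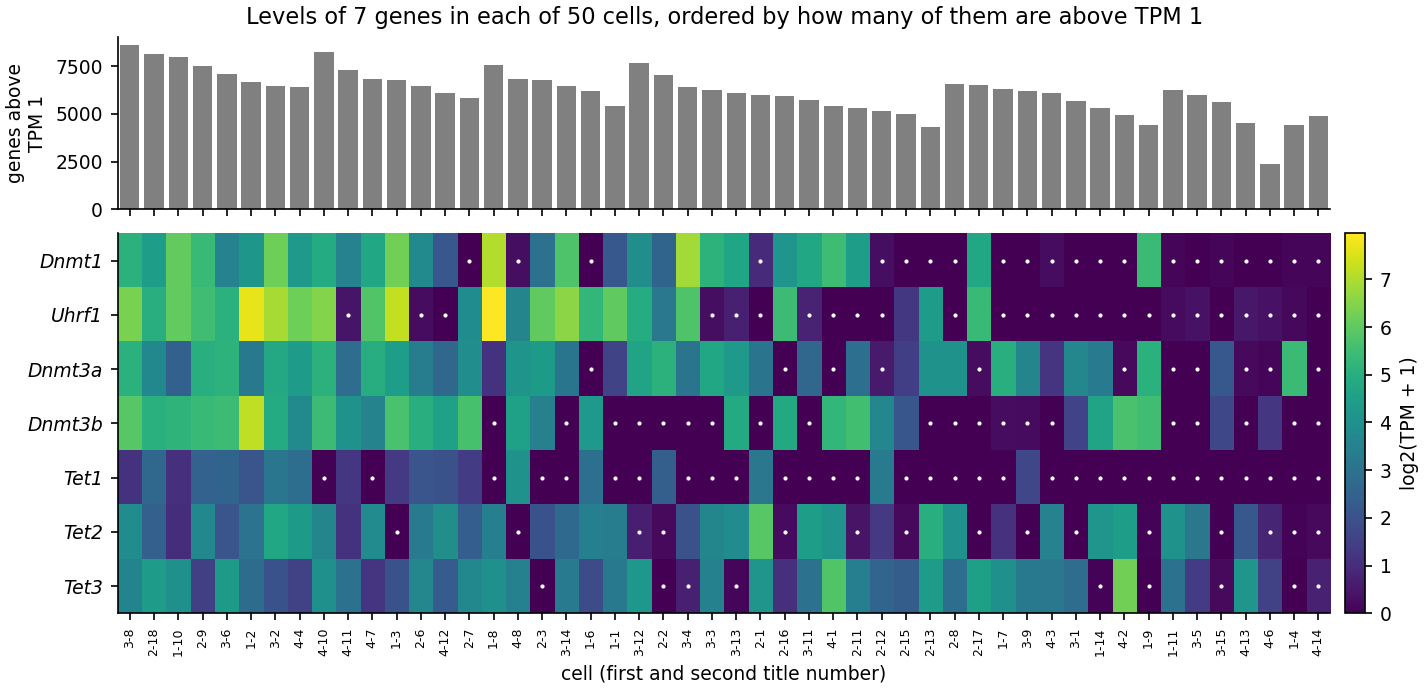
Bars show the number of genes above TPM 1 in each of 50 cells, and the heat map below shows the log2(TPM + 1) level of the 7 genes in the same cells, with a white dot where TPM was not above 1. Cells are ordered by how many of the 7 genes are above TPM 1, then by the number of genes. The 8 cells at the left hold all 7 and have 6421 to 8615 genes.

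The writers and the erasers were both found in most cells. At least 1 Dnmt gene was present in 46 cells (92%, 80.8% to 97.8%), and at least 1 Tet gene also in 46. Both kinds were present in 43 cells (86%, 73.3% to 94.2%). A Tet gene without any Dnmt gene was seen in 3 cells, and a Dnmt gene without any Tet gene in 3. Dnmt1, Dnmt3a and Dnmt3b were present together in 18 cells, and the 3 Tet genes together in 15. Exactly 2 Tet genes were present in 19 cells and 1 in 12.

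Dnmt1 and Uhrf1, which act together on newly copied DNA, were present together in 20 cells (40%, 26.4% to 54.8%), and both were absent in 16. Dnmt1 was present alone in 9 cells and Uhrf1 alone in 5. Uhrf1 was thus present in 69.0% of the cells with Dnmt1 (49.2% to 84.7%) and in 23.8% of the cells without it (8.22% to 47.2%). Their levels also ran in parallel. Over the 50 cells the rho between them was 0.563, and it was 0.371 given the number of genes above TPM 1. Within the first title numbers it lay between 0.380 and 0.761, and in the 20 cells with both genes it was 0.556. All cells come from 1 sample and share its preparation, so these values are a description without a p-value. The median rho of the 21 member pairs was 0.108. This pair had the highest rho, but given the number of genes the pair of Dnmt3b and Tet1 was at 0.379.

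Of the 16 cells without Dnmt1 and Uhrf1, 12 had Dnmt3a or Dnmt3b and 13 had at least 1 Tet gene. These 16 cells had 2400 to 6554 genes above TPM 1, with a median of 5647, and the 20 cells with both maintenance genes had 5431 to 8615, with a median of 6801. The part of this difference in the joint presence was not tested. All but 1 of the 20 cells with both maintenance genes also had Dnmt3a or Dnmt3b.

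Dnmt3a and Dnmt3b, which can each place new methyl groups, were less tied to each other. Both were present in 24 cells (48%, 33.7% to 62.6%), Dnmt3a alone in 15, Dnmt3b alone in 6 and neither in 5. Dnmt3b was present in 61.5% of the cells with Dnmt3a and in 54.5% of those without. The rho of their levels was 0.236, and it lay between -0.056 and 0.601 within the first title numbers.

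A further pair with a rho of at least 0.3 was Dnmt3b and Tet1. Tet1 was present in 16 of the 30 cells with Dnmt3b (53.3%, 34.3% to 71.7%) and in 3 of the 20 cells without it (15%, 3.21% to 37.9%). The rho was 0.421, or 0.379 given the number of genes. In the 16 cells with both genes the rho was -0.497, so among these the cells with more of one gene tended to have less of the other. No other pair reached a rho of 0.3, so 2 of 21 pairs did. Over all rows the share with such a rho was 4.54% with Dnmt3b, 7.11% with Tet1, 9.16% with Dnmt1 and 11.8% with Uhrf1. The number of pairs was therefore not read as a trait of these genes.

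Among the Tet genes, Tet2 and Tet3 were present together in 31 cells (62%, 47.2% to 75.3%), with a rho of 0.198 between their levels. Tet3 was also present in 18 of the 19 cells with Tet1. Tet1 was present in 52% of the cells with Uhrf1 (31.3% to 72.2%) and in 24% of those without it (9.36% to 45.1%), and in 44.8% and 28.6% by Dnmt1. Given the number of genes, the rho of Tet1 was -0.033 with Uhrf1 and -0.144 with Dnmt1. Tet2 was present in 75.9% of the cells with Dnmt1 and in 61.9% of those without it. Tet3 was present in 82.8% of the cells with Dnmt1 and in 81.0% of those without it, and the rho of Tet3 with Dnmt1 was 0.027.

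**Figure D3:**
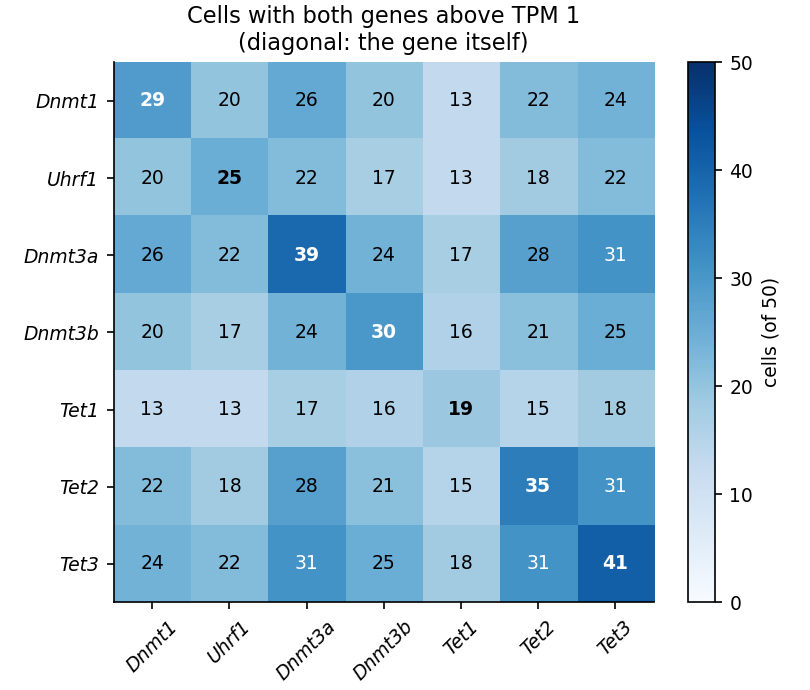
Number of cells of 50 in which both genes of a pair were above TPM 1, with the count of each gene alone on the diagonal. Dnmt1 and Uhrf1 were together in 20 cells, Tet2 and Tet3 in 31, and each other gene had its lowest joint count with Tet1.

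The relation to cell division was measured next, since maintenance methylation follows the replication fork. An S-phase score was the mean log2(TPM + 1) of 45 genes of DNA replication, such as the Mcm helicase genes and Pcna, and a G2/M score that of 50 genes of mitosis, such as Mki67 and Top2a. No member was in either list. The S-phase score ran from 0.82 to 6.24 with a median of 2.40, and the G2/M score from 0.95 to 8.01 with a median of 1.54. Both scores rose with the number of genes above TPM 1, with a rho of 0.70 and 0.61, so each relation is also given with that number held fixed, as a partial rho.

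Uhrf1 and Dnmt1 had the highest rho of the members with both scores. For the S-phase score the rho was 0.606 for Uhrf1 and 0.488 for Dnmt1. Within the first title numbers it was 0.556 to 0.718 for Uhrf1 and 0.261 to 0.525 for Dnmt1. Of 9057 other rows of the table, 99.8% had a lower rho than Uhrf1 and 98.2% a lower one than Dnmt1. Given the number of genes, the partial rho fell to 0.329 for Uhrf1, above 97.1% of these rows, and to 0.207 for Dnmt1, above 90.2%. For the G2/M score the rho was 0.481 for Uhrf1 and 0.491 for Dnmt1, and the partial rho 0.185 and 0.259. Within the first title numbers the G2/M values ran from 0.047 to 0.716 for Uhrf1 and from 0.140 to 0.762 for Dnmt1, lowest in both cases in number 2.

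The other 5 members followed the scores less. With the S-phase score, 4 of 7 members had a rho of at least 0.3, where 15.3% of all other rows did. Besides Uhrf1 and Dnmt1 these were Dnmt3a (0.322) and Tet1 (0.320), whose partial rho was 0.036 and 0.034. The rho of Dnmt3a ran from -0.182 in number 1 to 0.683 in number 4, and leaving out each number in turn gave 0.217 to 0.518. For Tet1 the same gave 0.211 to 0.427, so both lay on either side of 0.3 and the count of 4 was not steady. In the 19 cells with Tet1 the rho of Tet1 was -0.549. With the G2/M score, 2 of 7 members had a rho of at least 0.3, against 9.41% of other rows. For that score Dnmt3a had a rho of 0.236 and Tet1 one of 0.216, with a partial rho of -0.035 and -0.060. Dnmt3b had a rho of 0.217 with the S-phase score and 0.212 with the G2/M score, and a partial rho of 0.109 and 0.116. Tet2 had -0.079 and -0.084, and a partial rho of -0.139 and -0.129. Tet3 had -0.096 and 0.068, and a partial rho of -0.336 and -0.068. For the S-phase score, 3.62% of the other rows had a lower partial rho than Tet3. Within the first title numbers the S-phase rho of Tet3 ran from -0.364 to 0.287, so its sign was not steady either.

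**Figure D4:**
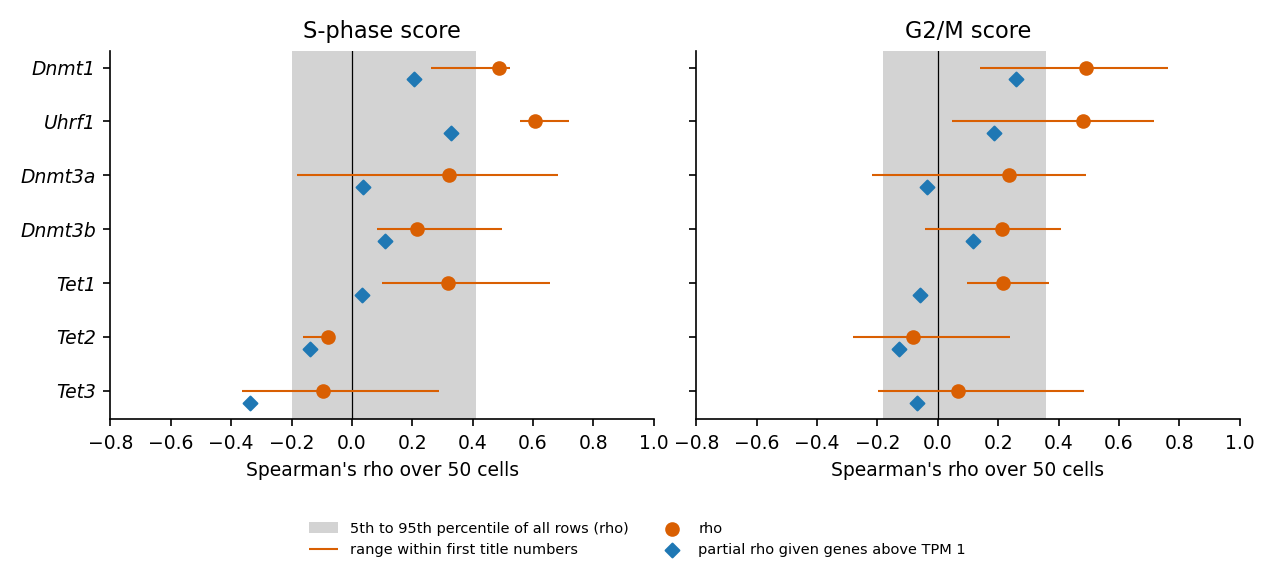
Spearman's rho over 50 cells of each gene with the S-phase score (left) and the G2/M score (right). Orange points are the rho, orange lines its range within the 4 first title numbers, blue diamonds the partial rho given the number of genes above TPM 1, and the grey band the 5th to 95th percentile of rho over the other rows. The points of Uhrf1 and Dnmt1 lie to the right of the band on both sides, and their partial rho is lower than their rho in each case. The band was drawn for the rho only, not for the partial rho.

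The 8 cells with the highest S-phase scores are given as examples, a number chosen after the scores were seen. The highest, cell 1-3 at 6.24, had 151 TPM of Uhrf1 and 76.3 TPM of Dnmt1. Cell 3-4 had 53.9 and 115 TPM, cell 3-14 had 94.1 and 53.7 TPM, and cell 1-8 had 248 and 130 TPM. Across the 8 cells Uhrf1 was at 53.9 TPM or more, Dnmt1 at 17.7 TPM or more and Dnmt3a at 1.26 TPM or more. They had 6390 to 8615 genes above TPM 1, where the median of all cells was 6224, and the part of this in the levels was not tested. Uhrf1 was above 50 TPM in 13 of 50 cells, so high levels were not confined to these 8. Cell 3-2 had 120 TPM of Uhrf1 and 72.9 TPM of Dnmt1 at an S-phase score of 2.49. Cell 1-1 had 64.4 TPM of Uhrf1 at a score of 1.17.

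The other members were less even in these cells. In cell 1-8, which had the highest Uhrf1 and Dnmt1 of all 50 cells, Dnmt3b and Tet1 were listed at 0 and Dnmt3a was at 1.26 TPM, while Tet3 was at 15.0 TPM. In cell 1-2 Dnmt3b was at 147 TPM. Tet2 was listed at 0 in cell 1-3, and Tet3 was at 0.633 TPM in cell 3-4.

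**Figure D5:**
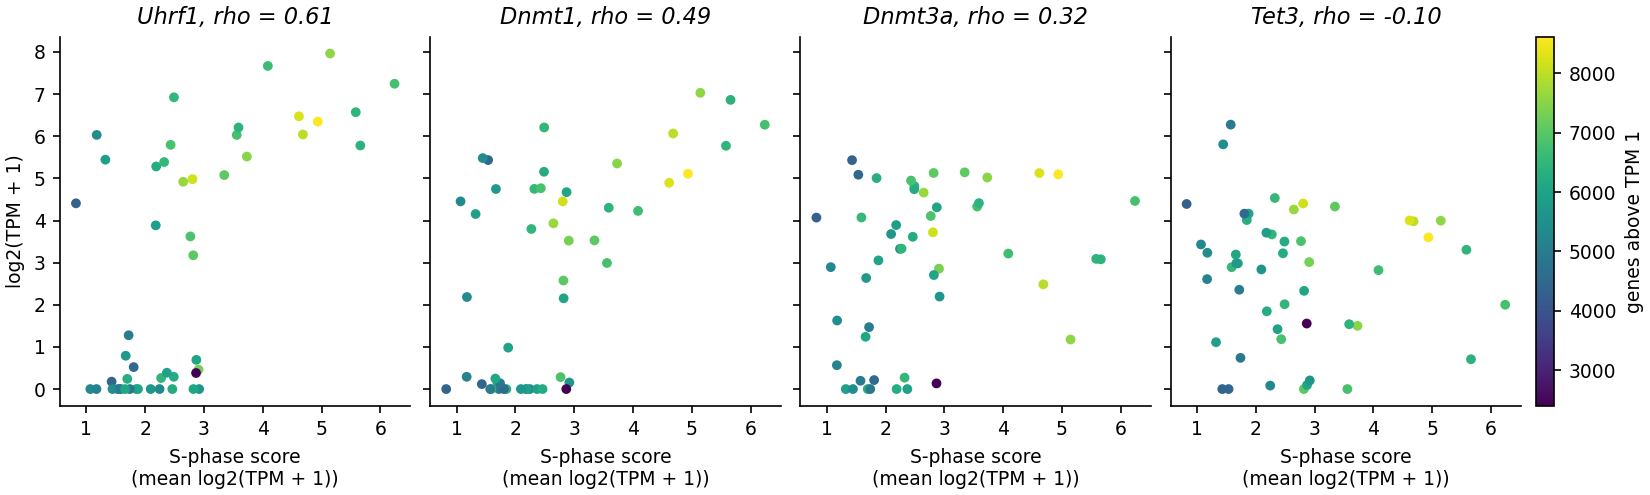
Level of Uhrf1, Dnmt1, Dnmt3a and Tet3, as log2(TPM + 1), against the S-phase score in 50 cells, coloured by the number of genes above TPM 1. The rho in each title falls from 0.61 for Uhrf1 and 0.49 for Dnmt1 to 0.32 for Dnmt3a and -0.10 for Tet3, and cells with high scores tend to have more genes.

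The maintenance pair was also set beside single division genes. Of 40 S-phase genes present in at least 10 cells, 27 had a rho of at least 0.3 with Uhrf1 and 22 with Dnmt1. Over all 9097 rows this share was 11.8% for Uhrf1 and 9.16% for Dnmt1. All 40 had a positive rho with each of them. Of 42 G2/M genes, 36 reached 0.3 with Uhrf1 and 29 with Dnmt1. The median rho was 0.384 over the S-phase and 0.395 over the G2/M genes with Uhrf1, and 0.312 and 0.379 with Dnmt1, so the higher rho of Uhrf1 with the S-phase score than with the G2/M score was not seen gene by gene. Given the number of genes, 13 S-phase and 17 G2/M genes still reached 0.3 with Uhrf1, where 236 of all 9097 rows (2.6%) did. With Dnmt1 these were 6 and 12, where 197 of all rows (2.2%) did. Mcm6, a subunit of the replicative helicase, had the highest rho of the S-phase genes with Uhrf1 (0.545), and Rrm1, a subunit of ribonucleotide reductase, with Dnmt1 (0.504).

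By presence, Uhrf1 was found in 14 of the 16 cells with Birc5, a gene of the chromosomal passenger complex, and in 11 of the 34 cells without it. Dnmt1 was found in 19 of the 20 cells with Cenpe, a kinetochore motor, and in 10 of the 30 without. For Mki67, a common marker of cycling cells, the numbers were 10 of 17 and 15 of 33 for Uhrf1, and 13 of 17 and 16 of 33 for Dnmt1. Pcna was present in 48 cells, so presence could not be compared, and its rho was 0.339 with Uhrf1 and 0.293 with Dnmt1. These 4 genes were chosen after their values were seen.

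For the other members far fewer division genes reached this rho. The numbers over the 82 S-phase and G2/M genes were 6 for Dnmt3a, where 9.51% of all rows reached it, 3 for Dnmt3b (4.54%), 3 for Tet1 (7.11%), 1 for Tet2 (1.84%) and 1 for Tet3 (4.09%). As shares of the 82 genes these counts were each below the share of all rows.

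The upstream sequences of the members were searched for E2F-type letters as a description. RefSeq (GRCm38.p6) gave 12 windows of 250 bases upstream of the starts of the 7 genes. Searched on both strands were TTTCCCGC, TTTCGCGC, TTTGCCGC and TTTGGCGC. A match was found in 2 of the 12 windows, 1 of Dnmt1 and 1 of Uhrf1, and in none of Dnmt3a, Dnmt3b or the Tet genes. Of all 32841 windows 1.86% held one, and of 39 windows of S-phase list genes 7 (17.9%) did. Of 45 windows of G2/M list genes 1 (2.22%) did. The sites are shown because they are the only matches in the members' windows. Each is given 5′ to 3′ on the strand of the gene, with 11 bases on either side and the match in capitals. The Dnmt1 site (chr9:20952824-20952853, minus strand) lies 219 bases before the start furthest along the gene of the 3 listed, within the annotated 5′ UTR of a longer transcript, and has the letters on the opposite strand. The Uhrf1 site (chr17:56304117-56304146, plus strand) lies 185 bases before the later of its 2 starts.
Dnmt1: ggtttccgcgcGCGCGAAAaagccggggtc
Uhrf1: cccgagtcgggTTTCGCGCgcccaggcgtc

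The whole window of Uhrf1 (chr17:56304063-56304312, plus strand) also held 30 CpG dinucleotides, more than 94.1% of all windows, and 2 copies of CCAAT on either strand, the letters of the NF-Y site, which 33.9% of all windows held at least once. CCAAT was in 5 of the 12 member windows, 2 of Dnmt1, 2 of Uhrf1 and 1 of Tet3, and in 64.1% of the S-phase list windows and 80% of the G2/M list windows. A window of Tet2 held 51 CpG dinucleotides and windows of Dnmt3a 38 and 40.
Uhrf1 window: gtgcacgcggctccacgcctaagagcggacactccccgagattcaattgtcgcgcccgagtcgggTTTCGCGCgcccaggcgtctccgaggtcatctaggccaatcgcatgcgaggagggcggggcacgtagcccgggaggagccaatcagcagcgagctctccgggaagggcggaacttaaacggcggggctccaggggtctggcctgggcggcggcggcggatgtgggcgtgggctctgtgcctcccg
The match is a description of these letters and not a shown binding site, and no relation between the letters and the levels was tested. Which start was used in these cells was not measured, as the table has 1 value per gene.

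Genes that work with the members were then examined. Of 36 listed genes 33 had a row, and 21 of these were present in at least 25 cells, where 53.2% of all rows were. Among partners of the writers, 5 of 7 were so. Uhrf2, a relative of Uhrf1, was present in 47 cells and its median was 69.7 TPM, while Uhrf1 was present in 25 with a median of 1.08 TPM. Trim28, the corepressor that binds zinc finger proteins, was present in 47 cells and Zfp57, which guards imprinted regions, in 40. Hells, a remodeller needed for normal methylation, was present in 29 cells, and Cdca7, its partner, in 24. Hells had a rho of 0.456 with the S-phase score and a partial rho of 0.423. Cdca7 had 0.409 and 0.199, and Uhrf2 had 0.239 and 0.036.

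Readers of methylated CpG sites were sparser, with 3 of 8 in at least 25 cells. Mbd3, a subunit of the NuRD complex that binds methylated DNA weakly, was present in 44 cells with a median of 77.9 TPM, followed by Mbd1 in 32 and Mbd2 in 31. Zbtb38 was present in 15 cells, Zbtb4 in 14 and Zbtb33 (Kaiso) in 9.

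Of the genes that can complete demethylation after oxidation, 7 of 11 were present in at least 25 cells. Tdg, the glycosylase that removes the oxidised bases, was present in 44 cells (88%, 75.7% to 95.5%), with a median of 50.6 TPM. Apex1, the endonuclease of base excision repair, was present in 46 cells. Neil1 was present in 20, Smug1 in 16 and Neil3 in 8. Gadd45g was present in 42 cells and Gadd45a in 28, but Gadd45b in 1.

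Of the genes listed for the supply of the methyl donor or the Tet cofactor, with Ogt among them, 6 of 7 were present in at least 25 cells. Idh1 and Idh2, which make the 2-oxoglutarate that Tet enzymes use, were present in 50 cells, with medians of 190 and 410 TPM. Mat2a, which makes S-adenosylmethionine, was present in 45 cells with a median of 145 TPM. Ogt, which binds Tet proteins and supplies neither, was present in 48. Of 12 germline genes known to be held silent by promoter methylation in body cells, 1 had a row. This was Tdrd1, listed at 0 in 50 of 50 cells. Listed zeros also occurred for genes in general use, in 13 cells for Tbp and 3 for Hprt, so no limit on its expression was drawn.

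The rows most like each member were found by rho over the 50 cells among rows present in at least 10 cells. For Uhrf1 the 5 highest were Kif4 (0.669), Cdca2 (0.663), Rad54l (0.641), Cenpn (0.631) and Shcbp1 (0.616). Kif4 and Cdca2 act on mitotic chromosomes, Rad54l acts in recombination and Cenpn is a centromere protein. Each was present in only 10 to 14 cells. For Dnmt1 they were Cenpe (0.666), the splicing factor Prpf31 (0.614), the Hsp90 activator Ahsa1 (0.595), Gsr (0.585) and Cpsf2 (0.572). Among the 50 rows most like Uhrf1 there were 8 of the 82 division genes, and 8 also for Dnmt1, while these genes made up 0.901% of all rows. Given the number of genes the counts were 5 and 4. Without that adjustment there were 0 for Dnmt3a, 1 for Dnmt3b, 1 for Tet1, 0 for Tet2 and 0 for Tet3.

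The rows most like the other members were of mixed kinds. For Dnmt3a they were Nipsnap1 (0.584), Dexi, Acy3, Nt5dc2 and Tfpt, and for Dnmt3b Mtmr1 (0.605), Xpo6, Dlat, Dip2b and Hnrnpa1. For Tet1 they were Drg1 (0.615), Ncl, which encodes nucleolin, Arhgap42, Taf15 and Alg12. Tet2 had the lowest top value, with Mast2 at 0.519, then Zfp69, Gon4l, Ralgps2 and Gfi1 (0.437), a transcriptional repressor that acts in the endothelial to hematopoietic transition. For Tet3 they were Aig1 (0.618), Stim2, Rrbp1, Wasl and Rab33b.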

How the data were processed

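The authors amplified the cDNA of each cell (Discover-sc WTA Kit V2), aligned the reads to mm10 with HISAT2 (version 2.1.0) and estimated TPM with StringTie (version 1.3.4), and deposited these TPM values, 1 column per cell. The annotation and the choice of rows are not given in the sources used here. The columns sum to 942975 to 970894 TPM. TPM keeps no depth, no unique molecular identifiers were named, and no cell was left out or thinned. Doublets were not called.

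Values were processed with Python (version 3.11.15), numpy (version 2.4.6), pandas (version 2.3.3) and scipy (version 1.17.1). Logarithms used a pseudocount of 1. Score genes had to be above TPM 1 in at least 5 cells, and rows compared with a member in at least 10. Older symbols were matched through RefSeq. The named genes were the members, the listed genes and the 5 rows most like each member. Members and lists were chosen with earlier results of these data known. 1 listed gene is not reported here by name. Coordinates are from GENCODE M21. The correlation step was tested on simulated data.

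Other settings tried were presence at TPM above 0, 5 or 10, logarithms with 0.1 added, other scores, each first title number left out, the 43 cells with at least 5000 genes, and removal of ribosomal protein rows. A share counted as kept within its exact interval, a rho within the SD of its 4 values within the first title numbers, and other counts within 1.5 times.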

Additional observations from a re-analysis of the deposited data

How the results depend on the processing

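Leaving out each first title number in turn, keeping cells with at least 5000 genes, and rescaling without ribosomal protein rows moved no share, joint count or rho beyond its limit, except that the rho of Tet2 with the S-phase score was -0.136 without number 2. For a rho this limit differed between members. With the S-phase score it was wide for Dnmt3a (0.377) and Tet3 (0.293), and narrow for Tet2 (0.050) and Uhrf1 (0.075). Without number 4 the G2/M rho of Dnmt3a was 0.066 and that of Tet2 0.071, without number 1 that of Tet3 was -0.062 and the S-phase rho of Dnmt3a 0.518, and without number 2 the S-phase rho of Tet3 was 0.036. The S-phase rho of Tet1 was 0.220 in cells with at least 5000 genes, and that of Dnmt3a 0.296 without ribosomal protein rows, both under 0.3. The presence level changed the shares by its own construction. At any TPM above 0, the shares were 74% for Dnmt1, 70% for Uhrf1, 88% for Tet2 and 92% for Tet3, 56% for Dnmt1 with Uhrf1, 12% for neither of them, 98% for a Dnmt with a Tet gene and 74% for the median over members, and the median cell held 5 members. Above TPM 5 they were 14% for Tet1, 50% for Tet2, 60% for Tet3, 2% for all 3 Tet genes and 68% for a Dnmt with a Tet gene. Above TPM 10 they were 46% for Dnmt3a, 2% for Tet1, 36% for Tet2, 36% for Tet3, 28% for Dnmt3a with Dnmt3b, 0% for all 3 Tet genes and 50% for a Dnmt with a Tet gene, with 2.5 members in the median cell, 3 writer partners and 1 reader.

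Given the number of genes above TPM 1, the S-phase rho was 0.207 for Dnmt1, 0.329 for Uhrf1, 0.034 for Tet1 and -0.139 for Tet2, the G2/M rho of Tet1 was -0.060, and rows with a rho of at least 0.3 were 4.00% and 2.2%. A score of 10 core division genes, all from the G2/M list, gave a rho of 0.471 for Uhrf1. It holds no gene of the S-phase list, so it is no check of the S-phase rho. Chosen after seeing the data, scores minus the mean of the cell gave 0.343 for Dnmt1 and 0.460 for Uhrf1 with S phase, and 0.211 for Dnmt1, 0.180 for Uhrf1, -0.168 for Dnmt3a and -0.225 for Tet1 with G2/M. Also chosen then, the rho over only the cells with the member present was -0.549 for Tet1, -0.317 for Tet2 and 0.083 for Dnmt3a with S phase. With G2/M it was -0.460 for Tet1. The cause was not tested. Over all these settings 167 rho values stayed within their limit, 14 moved and 1 reversed. Of the 167, 14 came from scores without the filter on low list genes, which left each rho as it was. The core score was counted under both the S-phase and the G2/M score. The 167 is thus no measure of how steady the values were. Of the 5 rows most like each member, 1 for Dnmt1, 3 each for Uhrf1, Dnmt3a, Tet1 and Tet2, 5 for Dnmt3b and 4 for Tet3 were kept given the number of genes. No paired analysis was possible because all cells belonged to 1 group.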

Other observations

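Other genes of these cells were set beside the members as values, each a rho over the same 50 cells, chosen after the values were seen. The endothelial junction gene Cdh5 had a rho of -0.438 with Uhrf1, -0.326 with Dnmt1 and -0.309 with Dnmt3a, and a partial rho of -0.275, -0.156 and -0.169 given the number of genes. The other 7 endothelial markers ran from -0.364 (Tek) to 0.074 (Emcn) with Uhrf1 and from -0.143 (Esam) to 0.104 (Tie1) with Dnmt1. By partial rho Tek (-0.454), Kdr (-0.295) and Egfl7 (-0.293) were below Cdh5 with Uhrf1, and the rest above it. With Dnmt1, Esam (-0.176) and Tek (-0.162) were below Cdh5, and the rest above it. With Tet3 the rho of Cdh5 was 0.193 and the partial rho 0.301. Runx1, the factor induced in this line, had its highest rho among the members with Dnmt3b, 0.362, or 0.326 given the number of genes. For Uhrf1 the values with Runx1 were 0.234 and 0.088. Kit had a rho of 0.301 with Tet2 and of -0.164 with Dnmt1.

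Ribosomal protein rows, 81 of which were present in at least 10 cells, had a negative median rho with 5 of the members. It was -0.224 with Tet3 (negative in 69 of 81), -0.218 with Uhrf1 (70), -0.185 with Dnmt3a (72), -0.135 with Tet1 (69) and -0.118 with Dnmt1 (60). With Dnmt3b it was 0.024 (31) and with Tet2 0.079 (19). Over all rows the share with a negative rho ran from 26.8% with Dnmt1 to 47% with Tet2. Given the number of genes the medians were -0.170 with Tet3, 0.002 with Uhrf1, -0.038 with Dnmt3a, 0.011 with Tet1 and 0.103 with Dnmt1. Mthfd1 and Ahcy, enzymes of the methyl donor cycle, had a rho of 0.573 and 0.530 with the S-phase score and a partial rho of 0.230 and 0.204. Parp1 had 0.523 and 0.432. Of the listed pathway genes, Idh1 had a rho of -0.048 and a partial rho of -0.376 with the G2/M score.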
